A study of Mus musculus with 21 samples.

Results

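Muscle stem cells that had lost TSC1 in mice without injury were compared with wild-type muscle stem cells in the alert state that an injury in the opposite leg induces. Every array titled TSC1KO QSC or WTGFP CSC at 2.5 days after injury was taken: 1 TSC1 KO pool measured on 2 technical arrays and 3 WT CSC pools on 4 arrays, which is 6 of the 21 arrays and 4 of the 12 pools of the series. Gene expression was measured on Affymetrix Mouse Gene 1.0 ST arrays, and values are deposited log2 signals. The question was which parts of the alert state the TSC1 KO pool reached, exceeded or lacked.

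The TSC1 KO cells came from noninjured TSC1flox/flox;Pax7CreER/+;Rosa26REYFP/+ mice of mixed C57BL6 strain. The WT CSC, contralateral satellite cells, came from Pax7CreER/+;Rosa26REYFP/+ mice of the same strain, from the hindlimb opposite to one injured with BaCl2, at 2.5 days. The 3 WT QSC pools, quiescent satellite cells from noninjured Pax7CreER/+;Rosa26REYFP/+ mice, gave the level from which the alert change is counted. Single noninjured pools of Rptrflox/flox and cMetflox/flox mice with the same Cre and reporter alleles, called Rptor KO QSC and cMet KO QSC, served as other noninjured pools; the cMet KO mice were C57BL6 mixed FVB. All mice were 3-5 months old, had received tamoxifen at least 2 weeks before, and carried a CreER driven by Pax7 and a YFP reporter by which the cells were sorted from hindlimb muscle. Each pool held cells of 3-4 mice and RNA was extracted directly after sorting, so recombination outside YFP+ cells and differences between mice within a pool are not measured.

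mTORC1 is the kinase complex that couples nutrients and growth factors to protein, lipid and nucleotide synthesis and to mitochondrial metabolism. TSC1 and TSC2 form the complex that holds Rheb, the activator of mTORC1, in its inactive form, so loss of TSC1 leaves mTORC1 active without an upstream signal, while RAPTOR, the product of Rptor, is a subunit that mTORC1 needs. Quiescent satellite cells, the stem cells of skeletal muscle, enter an alert state after an injury elsewhere in the body, in which they grow, raise mitochondrial activity and become readier to divide.

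The TSC1 KO group is 1 pool, so its difference from the WT CSC pools has no replicate check on the TSC1 KO side. The limma fit assumed that TSC1 KO pools vary as the other groups do, and with 1 pool against 3 an exact permutation test cannot give a p below 0.25. The 2 TSC1 KO arrays measure technical spread only, and they correlated at r = 0.994 over 13956 genes. One WT pool stood near the TSC1 KO pool: across those genes the TSC1 KO pool correlated with WT QSC pool 1 at r = 0.984, with WT QSC pools 2 and 3 at 0.952 and 0.954, with the 3 WT CSC pools at 0.921 to 0.930, with cMet KO QSC at 0.964 and with Rptor KO QSC at 0.931. Results set against the WT QSC pools are therefore also given without pool 1. That pool was picked by these same values, and leaving out the nearest WT pool tends to widen the differences from WT QSC. Calls that appear only without pool 1 are thus descriptions and no support. The TSC1 KO comparisons with WT CSC and with WT QSC share the TSC1 KO pool, and the alert change, WT CSC minus WT QSC, shares the WT CSC pools with the first and the WT QSC pools with the second.

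The probeset of Tsc1 itself read 8.14 and 8.18 on the TSC1 KO arrays, against 9.08, 8.66 and 8.58 in the WT CSC pools and 8.66, 8.34 and 8.69 in the WT QSC pools. The TSC1 KO pool was lower than each WT CSC pool, each WT QSC pool and the Rptor KO and cMet KO QSC pools, but the difference of -0.61 (SE 0.24) from WT CSC missed the threshold (limma, adjusted p = 0.154). A floxed allele can remove only some exons of a transcript that this probeset reads along its length, so the value checks no label. The sorted cells carried satellite cell markers in every pool: Pax7, the transcription factor that defines satellite cells, read 12.02 and 12.15 on the TSC1 KO arrays, against 10.63, 10.36 and 10.27 in WT CSC pools and 12.10, 11.30 and 11.09 in WT QSC pools. Log2 signals from this array have no zero, so no marker of any cell type is at 0.

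Of 13956 genes tested, 1251 differed between TSC1 KO QSC and WT CSC (limma, Benjamini-Hochberg adjusted p under 0.05, 8.96%), 740 higher in TSC1 KO (5.3%) and 511 lower (3.66%). The median difference over all genes was 0.04 and the median standard error 0.22. The number of calls rested on the WT pools: it was 700, 500 and 429 without WT CSC pool 1, 2 or 3, and 1961 without WT QSC pool 1. Many calls below changed when 1 WT pool was left out, and the values without it are given beside the main ones. List counts of calls against WT CSC stand beside the shares of 5.3% higher and 3.66% lower over all genes. Those shares moved with the number of calls when a pool was left out. In WT cells the alert change, CSC minus QSC, moved 2510 genes (18%), 1483 higher (10.6%) and 1027 lower (7.36%). The direct comparison placed 931 of these 2510 genes away from the WT CSC level on the side of WT QSC, 476 that were higher in WT CSC than in WT QSC and 455 that were lower. These genes are called lacked here, which means only that the TSC1 KO pool did not have the WT CSC level. The class includes genes that lay between the WT groups, such as Eno3. It also includes genes far beyond WT QSC on the side away from WT CSC, such as Cox8b and Ryr3. Without WT CSC pool 1, 2 or 3 the alert change had 1280, 1274 and 1181 genes and the lacked class 463, 367 and 316. Beyond the WT CSC level in the direction of the alert change lay 3 genes, Myl4, Cd53 and Mir485. No gene counted as reached, which required a called difference from WT QSC in the alert direction and none from WT CSC, because TSC1 KO QSC against WT QSC called only 2 genes (0.0143%), Cox8b and Ryr3, with 1231 genes at an unadjusted p under 0.05. Only Cox8b kept its call there without each WT pool in turn; Ryr3 lost it without any 1 of the WT CSC pools (adjusted p = 0.121 to 0.142) and without WT QSC pool 2 or 3 (0.0799 and 0.0584). Without WT QSC pool 1 the same comparison called 231 genes, 211 higher and 20 lower, and 40 genes counted as reached, 34 of them higher. Without WT QSC pool 2 or 3 it called 1 and 2 genes, and none counted as reached. The remaining 1576 alert genes were called in neither way, which does not show that they had the WT CSC level or the WT QSC level.

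**Figure D1:**
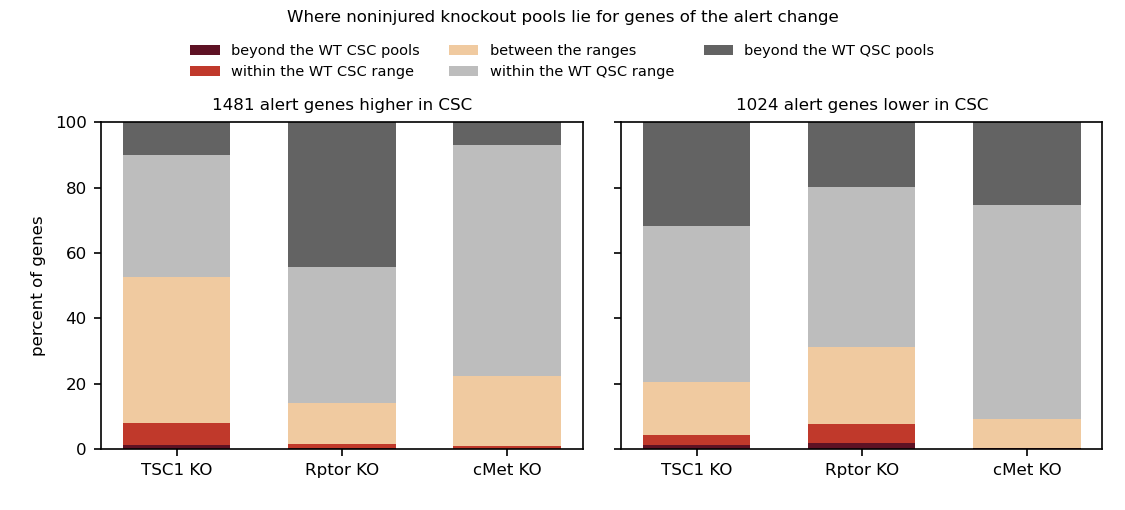
Share of alert genes, in percent, for which each noninjured knockout pool lay beyond the 3 WT CSC pools, within their range, between the ranges, within the range of the 3 WT QSC pools or beyond those, for 1481 genes higher in WT CSC (left) and 1024 lower in WT CSC (right). The TSC1 KO pool was in or beyond the WT CSC range for 7.90% of the genes higher in WT CSC, against 1.55% for Rptor KO and 0.878% for cMet KO.

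Positions between the pool ranges use no test and so describe the single pools. Of the 2510 alert genes, 2505 had WT CSC and WT QSC pools that did not overlap. Among the 1481 of these that were higher in WT CSC, the TSC1 KO pool lay beyond the WT CSC pools for 15 genes, within their range for 102, between the WT CSC and WT QSC ranges for 663, within the WT QSC range for 552 and below all WT QSC pools for 149. So it was in or beyond the WT CSC range for 7.90% of them, against 1.55% for Rptor KO QSC and 0.878% for cMet KO QSC, and in or below the WT QSC range for 47.3%, against 85.8% and 77.8%. Genes lower in WT CSC did not show this order. Of those 1024, the TSC1 KO pool was in or beyond the WT CSC range for 4.30%, Rptor KO QSC for 7.62% and cMet KO QSC for 0.293%, as the plot of alert gene positions shows. It was in the WT QSC range or beyond it for 79.4%, against 68.8% for Rptor KO QSC and 90.9% for cMet KO QSC.

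The promoters of cell cycle genes are shown first because those genes had the lowest list medians against WT CSC among the listed groups. Each sequence is the 250 bases before a RefSeq transcript start (GRCm38.p6), written 5′ to 3′ on the gene's strand, and capitals mark a match to the E2F motif, TTTCCCGC or TTTGGCGC, searched on both strands. Only promoters with a match are printed, so these examples were chosen for holding the motif. A filter by chromosome was also applied to the printed promoters. Kif15 is shown for its sequence only. Hells is at chr19:38930740-38930989 on the plus strand, Kif15 at chr9:122950831-122951080 on the plus strand and Mcm6 at chr1:128359706-128359955 on the minus strand, with 2 matches.
Hells: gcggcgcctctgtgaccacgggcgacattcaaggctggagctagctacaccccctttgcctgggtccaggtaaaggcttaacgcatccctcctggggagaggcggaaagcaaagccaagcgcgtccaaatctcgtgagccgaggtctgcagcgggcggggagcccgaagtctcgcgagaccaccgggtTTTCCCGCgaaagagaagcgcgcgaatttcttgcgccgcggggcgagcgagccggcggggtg
Kif15: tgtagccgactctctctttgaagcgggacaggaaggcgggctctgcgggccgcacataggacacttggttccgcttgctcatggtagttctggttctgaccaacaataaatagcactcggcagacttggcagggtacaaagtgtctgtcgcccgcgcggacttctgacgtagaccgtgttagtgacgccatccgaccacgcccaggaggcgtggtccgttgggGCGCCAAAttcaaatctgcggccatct
Mcm6: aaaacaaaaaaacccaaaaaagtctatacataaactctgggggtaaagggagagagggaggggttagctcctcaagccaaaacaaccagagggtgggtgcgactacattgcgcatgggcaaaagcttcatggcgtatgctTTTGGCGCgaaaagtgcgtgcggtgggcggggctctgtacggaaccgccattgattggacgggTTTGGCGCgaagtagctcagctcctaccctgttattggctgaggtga
The motif was in 9 of 56 promoters of the S phase list (16.1%, 46 of its 54 tested genes matched a promoter) and in 3 of 46 promoters of the mitosis list (6.52%, 44 of 55 genes matched). It was in 427 of the 32851 promoters of all genes (1.3%). A match describes the letters only and is not a measured binding site.

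The mean over genes of DNA replication was near the quiescent level in the TSC1 KO pool, at 7.82. WT QSC pools had 7.53 to 7.78 and WT CSC pools 8.89 to 9.06. Of 54 tested genes of the S phase list 34 were lower in TSC1 KO QSC than in WT CSC (background 3.66%) and none was higher, with a median difference of -1.10 against 0.04 over all genes; in WT cells 48 of the 54 were higher in CSC than in QSC, with a median of 1.22. Ccne2, cyclin E2 of the G1 to S transition, read 6.13 and 6.45 on the TSC1 KO arrays, against 8.59, 9.16 and 9.37 in WT CSC and 6.24, 6.31 and 6.49 in WT QSC. The TSC1 KO arrays overlapped the WT QSC pools and lay far below every WT CSC pool, a 6.72-fold lower signal (log2 -2.75, SE 0.28, limma adjusted p = 0.00229). Mcm6, a subunit of the replicative helicase, read 7.52 and 7.71 in TSC1 KO, against 10.02, 9.83 and 9.84 in WT CSC and 7.76, 7.62 and 8.17 in WT QSC, and was 4.87-fold lower than in WT CSC (adjusted p = 0.00223). Hells, a chromatin remodelling helicase, read 6.07 and 6.25 in TSC1 KO, against 8.01, 8.29 and 8.04 in WT CSC and 5.96, 6.11 and 6.14 in WT QSC (3.87-fold lower than in WT CSC, adjusted p = 0.00215). Cdc45, which works in the same helicase as Mcm6, fell by 1.58 on the log2 scale (adjusted p = 0.00272). The TSC1 KO and WT QSC values of Hells, and most of those of Ccne2, lay under log2 6.45, the mean signal below which genes were left out. Near that floor, likeness between groups says little about level. In the positions, none of the 48 alert genes of this list was in the WT CSC range, 22 lay between the ranges, 23 in the WT QSC range and 3 below it. In or below the WT QSC range were thus 54.2%, against 47.3% of all 1481 alert genes higher in WT CSC, so the share was near that over all. For the same 48 genes it was 79.2% in Rptor KO QSC and 89.6% in cMet KO QSC.

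Mitosis genes also lay below WT CSC, most of them above the quiescent range. Of 55 tested, 49 were lower in TSC1 KO QSC than in WT CSC and none higher, with a median of -1.41; the alert change raised 53 of them, with a median of 1.64. Cdk1, the kinase that drives entry into mitosis, read 8.29 and 8.54 on the TSC1 KO arrays, against 10.69, 10.79 and 10.57 in WT CSC and 8.23, 8.52 and 8.78 in WT QSC (4.81-fold lower than in WT CSC, limma adjusted p = 0.00223). Plk1, a kinase of spindle assembly, read 7.83 and 8.15 in TSC1 KO, against 10.52, 10.09 and 10.21 in WT CSC and 7.62, 6.84 and 7.39 in WT QSC. It was 4.86-fold lower than in WT CSC (adjusted p = 0.00459) while both TSC1 KO arrays were above every WT QSC pool. Of the 53 alert genes of this list, 38 lay between the WT QSC and WT CSC ranges, 14 in the WT QSC range and 1 below it, and none in the WT CSC range. In or below the WT QSC range were thus 28.3%, against 47.3% of all 1481 alert genes higher in WT CSC. For the same 53 genes the share was 100% in Rptor KO QSC and 58.5% in cMet KO QSC.

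Against the noninjured knockout pools, which share no sample with the alert comparison, TSC1 KO QSC differed from the mean of Rptor KO QSC and cMet KO QSC in 21 genes (0.15%), 16 higher (0.115%) and 5 lower (0.0358%). The WT pools enter that comparison only through the estimate of spread, and it called 1 gene, Cox8b, without WT CSC pool 1, 2 or 3 and 238, 125 and 38 without WT QSC pool 1, 2 or 3. Among the 16 were 3 of the 55 mitosis genes: Anln, a scaffold of the cleavage furrow (log2 1.28, adjusted p = 0.0421), Ccna2, cyclin A2 (1.45, adjusted p = 0.042), and Mki67, a marker of cycling cells (1.46, adjusted p = 0.042). Those 3 calls were lost without any 1 of the WT CSC pools (Anln 0.0915 to 0.144, Ccna2 0.0915 to 0.138, Mki67 0.0915 to 0.138). Ccna2 read 9.28 and 9.41 in TSC1 KO, against 6.45 in Rptor KO QSC and 9.35 in cMet KO QSC, and Mki67 9.64 and 9.64, against 6.95 and 9.42. For both genes the Rptor KO pool was the low one and the TSC1 KO pool lay near cMet KO. The WT QSC pools read 9.19, 8.91 and 9.05 for Ccna2 and 9.18, 8.96 and 9.19 for Mki67. Against WT CSC, Mki67 fell by 0.87 (adjusted p = 0.0249, and 0.0613 to 0.0879 without single WT CSC pools).

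Of 18 G1 cyclins and their kinases, 4 were lower and 2 higher in TSC1 KO QSC than in WT CSC, and 3 to 4 lower and none higher without single WT CSC pools. Cdk6, a partner of D cyclins, read 8.32 and 8.63 in TSC1 KO, against 11.10, 10.59 and 10.51 in WT CSC and 8.47, 8.29 and 8.53 in WT QSC. Its fall of 2.26 on the log2 scale (adjusted p = 0.00289) left it within the WT QSC range on the pool mean. Ccne1, cyclin E1, fell by 1.53 (adjusted p = 0.0107).

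**Figure D2:**
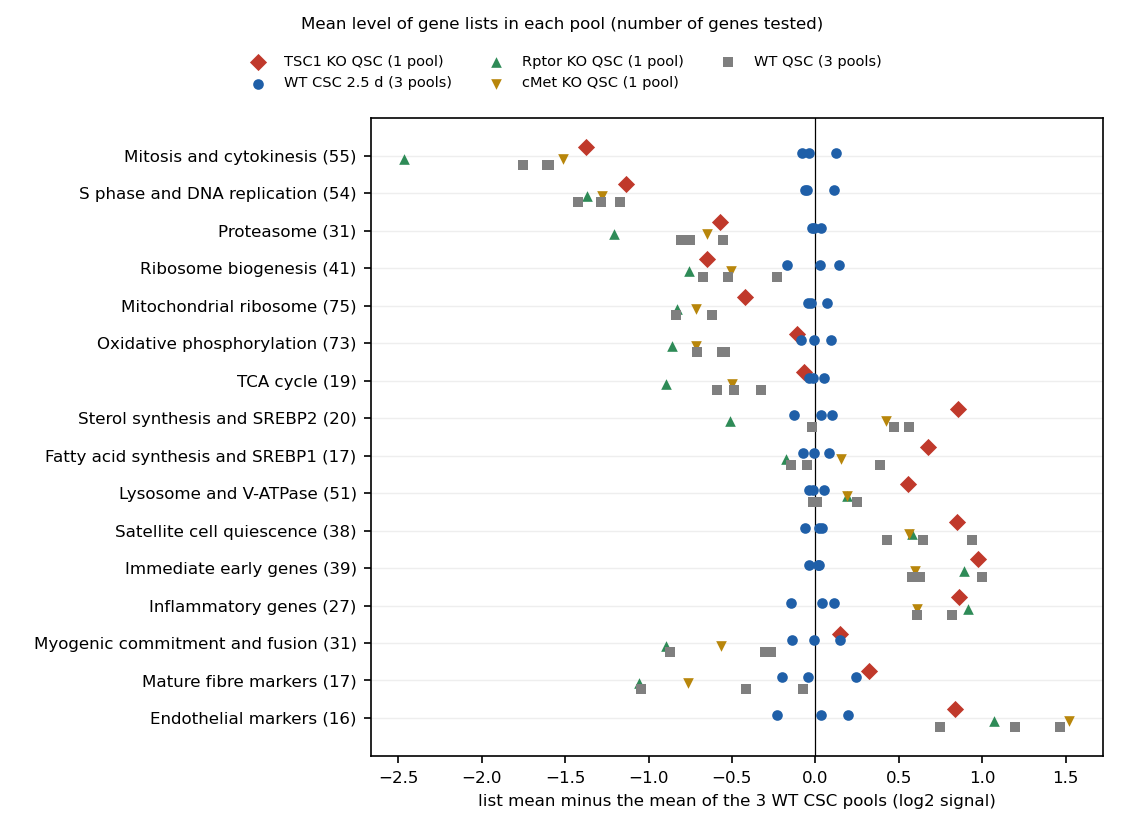
Mean log2 level of each gene list in single pools, minus the mean of the 3 WT CSC pools, with the number of genes tested in brackets. TSC1 KO QSC lay just below the WT CSC pools for oxidative phosphorylation (10.38, against 10.40 to 10.58 in WT CSC pools) and just above the WT QSC pools for S phase (7.82, against 8.89 to 9.06 in WT CSC and 7.53 to 7.78 in WT QSC).

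Genes of mitochondrial respiration lay near the alert level in the TSC1 KO pool. The mean over 73 genes of oxidative phosphorylation was 10.38 in TSC1 KO QSC, against 10.58, 10.40 and 10.48 in WT CSC pools, 9.95, 9.77 and 9.93 in WT QSC pools, 9.63 in Rptor KO QSC and 9.77 in cMet KO QSC. The TSC1 KO pool was thus just below the lowest WT CSC pool and above all 5 other noninjured pools. In the direct comparison 1 of the 73 genes was higher and none lower in TSC1 KO QSC, the median difference was -0.14, and 57 of the 95% intervals contained 0. Without single WT QSC pools 2 to 3 genes were higher and 1 to 2 lower. In WT cells the alert change raised 42 of the 73, with a median of 0.56. A p that misses the threshold does not show that the levels were alike: single differences ran from -0.97 to 1.10. The part of RNA from muscle fibres in these levels, and in those of Ppargc1a and Cox8b below, was not tested.

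Gene by gene, 62 of the 73 were higher in the TSC1 KO pool than in each of the 5 other noninjured pools, and 35 were at or above the lowest WT CSC pool, against 8 in Rptor KO QSC, 4 in cMet KO QSC and 14, 8 and 7 in WT QSC pools 1, 2 and 3. Still, 38 of the 73 were below all WT CSC pools and 14 above all of them. Over all 13956 genes, 3618 were higher in the TSC1 KO pool than in each of the 5 other noninjured pools. At or above the lowest WT CSC pool were 9399, against 9013 in Rptor KO QSC and 9708 in cMet KO QSC. The TSC1 KO pool was below all WT CSC pools for 4557 of all genes and above all of them for 5693. Of the 42 alert genes of the list, the TSC1 KO pool was beyond the WT CSC range for 3, within it for 6, between the ranges for 29 and in the WT QSC range for 4. In or beyond the WT CSC range were thus 21.4%, against 7.90% of all 1481 alert genes higher in WT CSC. TSC1 KO QSC against WT QSC had a median of 0.46 over the list, and 0.47, 0.43 and 0.46 without WT QSC pool 1, 2 or 3. None of the 73 was called in that comparison with all pools and 6 were called without pool 1, of which Ndufs8, Ndufs7, Ndufab1 and Atp5g1 also counted as reached. Without WT QSC pool 2 or 3 none of the 73 was called.

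**Figure D3:**
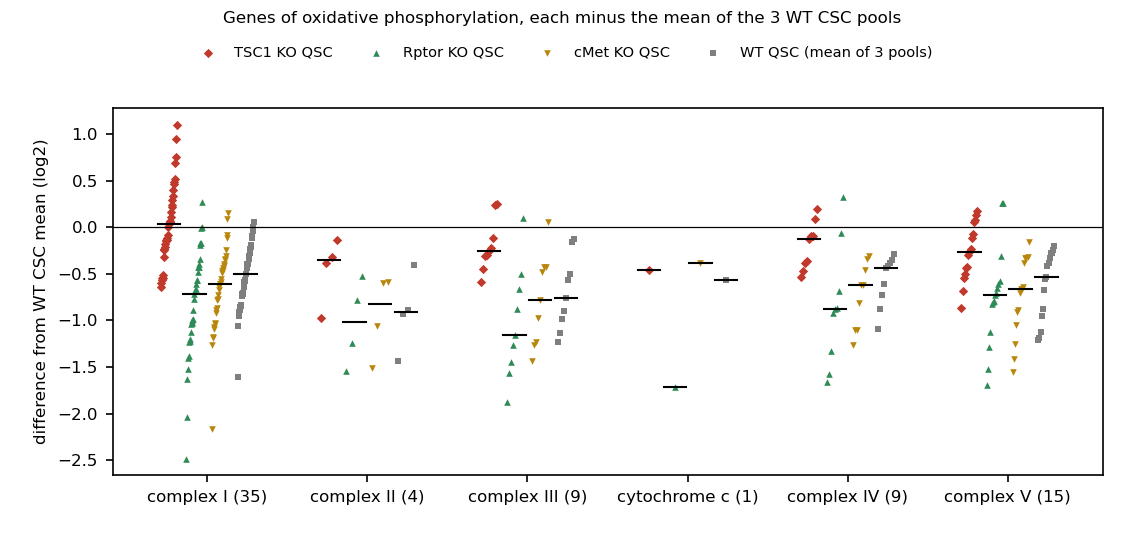
Each gene of oxidative phosphorylation minus the mean of the 3 WT CSC pools (log2), by complex, in TSC1 KO QSC, Rptor KO QSC, cMet KO QSC and the mean of the WT QSC pools; black lines are medians. TSC1 KO medians were 0.04 for complex I and -0.35 for complex II, and 22 of 35 complex I genes were at or above the lowest WT CSC pool. Of all 13956 genes tested 9399 were.

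Medians varied between the complexes of the respiratory chain, a difference that was not tested. Complex I, which takes electrons from NADH, had 35 genes with a median difference of 0.04 from WT CSC, 22 of them at or above the lowest WT CSC pool. The medians were -0.35 over 4 genes of complex II, -0.25 over 9 of complex III, -0.13 over 9 of complex IV and -0.26 over 15 of ATP synthase. Ndufa1, a small accessory subunit of complex I, was the gene called higher: it read 8.70 and 8.82 on the TSC1 KO arrays, against 7.66, 7.59 and 7.72 in WT CSC and 7.93, 7.17 and 7.60 in WT QSC. It was 2.15-fold higher than in WT CSC (limma adjusted p = 0.0355), a gene that the alert change did not call (0.09, adjusted p = 0.784), and it lost the call without any 1 of the WT CSC pools (adjusted p = 0.0796 to 0.103). Ndufc1, another accessory subunit, read 10.39 and 10.37, against 9.68, 9.13 and 9.47 in WT CSC and 9.46, 9.34 and 8.90 in WT QSC, a difference of 0.95 from WT CSC (adjusted p = 0.0632). At the other end Sdhd, a membrane anchor of complex II, read 9.16 and 9.41 in TSC1 KO, against 10.62, 9.96 and 10.19 in WT CSC and 8.74, 8.70 and 9.02 in WT QSC, a difference of -0.97 (adjusted p = 0.0508). Cycs, cytochrome c, differed by -0.46 (adjusted p = 0.222). Ndufab1, the acyl carrier protein of complex I, read 9.98 and 10.14 in TSC1 KO, against 9.71, 9.69 and 9.77 in WT CSC and 9.17, 8.89 and 9.00 in WT QSC. With Ndufs5, a subunit of the same complex, it was one of the 2 genes of the list called higher than in the Rptor KO and cMet KO pools (Ndufab1 1.38, adjusted p = 0.042; Ndufs5 1.49, adjusted p = 0.0421), and both calls were lost without any 1 of the WT CSC pools (0.0915 to 0.144 for Ndufab1 and for Ndufs5) and that of Ndufs5 without WT QSC pool 3 (0.0513).

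Other mitochondrial lists held genes called lower than in WT CSC. Of 19 genes of the citric acid cycle 2 were lower in TSC1 KO QSC and none higher, with a median of -0.07, where the alert change raised 7. Those 2 were Idh3a, a subunit of isocitrate dehydrogenase (-1.04, adjusted p = 0.0173), and Mdh2, mitochondrial malate dehydrogenase (-0.90, adjusted p = 0.0384). Idh3a lost its call without WT CSC pool 2 or 3 (adjusted p = 0.0504 and 0.0636) and Mdh2 without any 1 of the 3 (0.0893 to 0.112), and without WT QSC pool 1 the list had 2 higher calls. Of 75 mitochondrial ribosome genes 13 were lower and none higher, with a median of -0.42, and the alert change raised 48, with a median of 0.73. Their mean was 8.57 in TSC1 KO QSC, against 9.07, 8.95 and 8.97 in WT CSC pools and 8.37, 8.16 and 8.38 in WT QSC pools, which is between the groups. Mrpl11, a protein of the large subunit, read 7.65 and 7.73 in TSC1 KO, against 8.94, 8.91 and 9.15 in WT CSC and 7.81, 7.39 and 7.88 in WT QSC (2.48-fold lower than in WT CSC, adjusted p = 0.0119). Without single WT CSC pools the list had 3 to 5 lower calls.

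Ppargc1a encodes PGC-1alpha, the coactivator that drives mitochondrial biogenesis. It read 10.13 and 10.14 on the TSC1 KO arrays, against 8.17, 7.36 and 7.39 in WT CSC and 8.37, 8.05 and 7.65 in WT QSC. Both arrays were far above every other noninjured and WT CSC pool, 5.63-fold over WT CSC (log2 2.49, SE 0.36, limma adjusted p = 0.00593). The alert change did not call it (-0.38, adjusted p = 0.338). Among 20 regulators of mitochondrial biogenesis it was the single call, where 2 were higher and 1 lower without WT QSC pool 1 or 2.

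Cox8b, an isoform of a small cytochrome oxidase subunit found in heart, muscle and brown fat, had the largest difference from WT CSC. It read 12.06 and 11.82 on the TSC1 KO arrays, against 7.20, 7.21 and 7.40 in WT CSC and 8.02, 7.64 and 7.96 in WT QSC. The signal was 25.6-fold higher than in WT CSC (log2 4.68, SE 0.21, adjusted p = 4.02e-05) and 16.9-fold higher than in WT QSC (adjusted p = 0.000136), where the alert change of -0.60 (adjusted p = 0.0226) lost its call without any 1 of the WT CSC pools (0.0559 to 0.0938) and without WT QSC pool 1 or 3 (0.0541 and 0.0523). It was also 9.79-fold higher than the mean of Rptor KO (9.49) and cMet KO (7.81) pools (adjusted p = 0.00148). The other muscle isoforms Cox7a1 and Cox6a2, looked up after Cox8b was seen, differed from WT CSC by 0.55 (adjusted p = 0.15) and 0.35 (adjusted p = 0.274), and Cox8a, the isoform of most tissues, by 0.20 (adjusted p = 0.685).

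**Figure D4:**
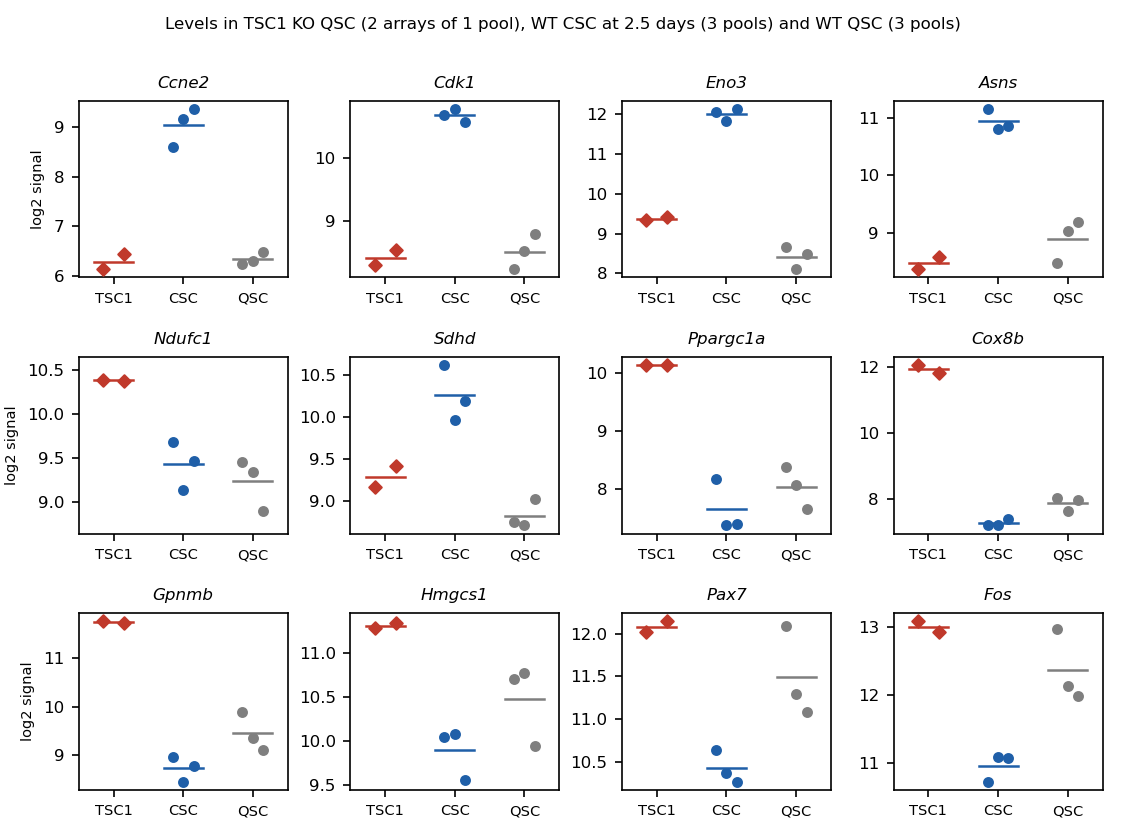
Log2 signal of 12 genes in TSC1 KO QSC (2 arrays of 1 pool), WT CSC at 2.5 days (3 pools) and WT QSC (3 pools); lines are means and each panel has its own scale. Ccne2, Cdk1 and Asns in TSC1 KO lay with WT QSC, Eno3 between, and Cox8b (12.06 and 11.82) and Ppargc1a (10.13 and 10.14) above both WT groups.

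Genes of glycolysis and of the pathways that build nucleotides and amino acids included some that the alert state raised. With all pools no gene of the glycolysis, ATF4 and nucleotide lists was called over WT QSC in the TSC1 KO pool, and without WT QSC pool 1 the glycolysis gene Pfkm was (log2 difference 0.92, limma adjusted p = 0.0482). With all pools that comparison called only 2 of all 13956 genes. In the WT QSC range, or beyond it on the side away from WT CSC, TSC1 KO QSC lay in 4 of the 8 glycolysis genes that the alert state raised, 6 of 8 of the ATF4 list and 7 of 10 of nucleotide synthesis, and the others lay between the ranges. These shares are 50%, 75% and 70%, against 47.3% of all 1481 alert genes higher in WT CSC, so that of glycolysis was near the share over all. Of 17 glycolysis genes 5 were lower in TSC1 KO QSC than in WT CSC and none higher, with a median of -0.16, while the alert change raised 8. The lower calls numbered 2 without WT CSC pool 2 or 3, and 2 genes were higher without WT QSC pool 1. Eno3, the muscle enolase, read 9.35 and 9.41 on the TSC1 KO arrays, against 12.05, 11.83 and 12.14 in WT CSC and 8.65, 8.10 and 8.49 in WT QSC. It lay above every WT QSC pool and 6.19-fold below WT CSC (limma adjusted p = 0.00168), where the alert change was 12.1-fold. Pgk1, phosphoglycerate kinase, read 10.85 and 10.90 in TSC1 KO, against 12.02, 12.22 and 12.32 in WT CSC and 10.39, 10.65 and 10.90 in WT QSC (2.48-fold lower than in WT CSC, adjusted p = 0.0122).

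Among 26 targets of ATF4, the transcription factor of the amino acid response, with genes of serine synthesis, 6 were lower and 1 higher, and none was higher without any 1 of the WT CSC pools and 2 without WT QSC pool 2 or 3. Asns, asparagine synthetase, read 8.37 and 8.59 in TSC1 KO, against 11.15, 10.81 and 10.86 in WT CSC and 8.47, 9.04 and 9.20 in WT QSC, and was 5.51-fold lower than in WT CSC (adjusted p = 0.00307). It was also high in cMet KO QSC (10.65) and low in Rptor KO QSC (7.99). Phgdh, the first enzyme of serine synthesis, fell by 1.75 on the log2 scale (adjusted p = 0.00543), and Slc7a11, the cystine transporter, by 1.87 (adjusted p = 0.0151, and 0.0501 and 0.0531 without WT CSC pool 2 or 3). Of 20 genes of the pentose phosphate pathway and NRF2, the factor of the antioxidant response, 7 were lower and none higher, and 2 were lower without WT CSC pool 2 or 3. Of 18 nucleotide synthesis genes 2 were lower and none higher, with a median of -0.65, and 1 was lower without WT CSC pool 1, 2 or 3, and 8 and 9 without WT QSC pool 1 or 2.

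Genes of protein synthesis and turnover were called less widely, where 3.66% of all genes were called lower. Of 41 ribosome biogenesis genes 4 were lower and none higher in TSC1 KO QSC than in WT CSC, with a median of -0.69, and the alert change raised 10. It had 3, 1 and 1 lower calls without WT CSC pool 1, 2 or 3 and 8, 13 and 9 without WT QSC pool 1, 2 or 3. Wdr12, which processes the large subunit RNA, read 8.14 and 8.25 in TSC1 KO, against 9.16, 9.27 and 9.28 in WT CSC and 8.33, 8.44 and 8.48 in WT QSC (adjusted p = 0.0101). Of 54 cytosolic ribosomal proteins 1 was lower, with a median of -0.24, and the alert change called none of them. That count was 2, 0 and 0 without WT CSC pool 1, 2 or 3. Of 22 translation factors 1 was lower, and of 18 aminoacyl-tRNA synthetases 2, with no call in either list without any 1 of the WT CSC pools, 2 and 4 translation factors without WT QSC pool 1 or 2, and 3 synthetases without any 1 of the WT QSC pools. Of 31 proteasome genes 4 were lower, with a median of -0.56, and the alert change raised 22. The proteasome calls numbered 3, 2 and 0 without WT CSC pool 1, 2 or 3, and 6, 8 and 8 without WT QSC pool 1, 2 or 3. Psmb4, a subunit of the proteasome core, read 10.28 and 10.17 in TSC1 KO, against 11.66, 11.49 and 11.60 in WT CSC and 10.74, 10.86 and 11.39 in WT QSC, so it was below the pools of both WT groups (2.57-fold lower than in WT CSC, adjusted p = 0.0144, and 0.0522 without WT CSC pool 3).

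Lipid synthesis genes, which SREBP factors activate downstream of mTORC1, lay above the alert level in the TSC1 KO pool. Of 20 sterol synthesis genes 5 were higher than in WT CSC (background 5.3%) and none lower, with a median of 0.83. In WT cells the alert change raised none and lowered 3. All 20 differences from WT CSC were positive. The list mean was 9.87 in TSC1 KO QSC, against 9.05, 9.12 and 8.89 in WT CSC, 9.58, 9.49 and 9.00 in WT QSC, 8.50 in Rptor KO QSC and 9.44 in cMet KO QSC. WT QSC pools spread over much of the distance to the TSC1 KO pool. The list had 0 to 1 higher calls without single WT CSC pools and 8 to 12 without single WT QSC pools. Hmgcs1, HMG-CoA synthase, read 11.28 and 11.34 on the TSC1 KO arrays, against 10.05, 10.07 and 9.56 in WT CSC and 10.70, 10.78 and 9.95 in WT QSC (2.66-fold over WT CSC, adjusted p = 0.0338, and 0.0659 to 0.0939 without single WT CSC pools). Insig1, the sterol sensor that restrains SREBP, read 12.08 and 12.21, against 10.55, 10.72 and 10.25 in WT CSC and 11.75, 11.65 and 10.94 in WT QSC (3.11-fold, adjusted p = 0.0167, and 0.0562 without WT CSC pool 3).

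Of 17 genes of fatty acid synthesis 6 were higher and 1 lower in TSC1 KO QSC, with a median of 0.86, where the alert change raised 1 and lowered 3. Scd1, the desaturase that makes monounsaturated fatty acids, read 12.54 and 12.61 in TSC1 KO, against 10.74, 11.02 and 11.08 in WT CSC and 12.12, 11.94 and 11.20 in WT QSC (3.09-fold over WT CSC, adjusted p = 0.019, and 0.0521 to 0.0527 without single WT CSC pools). Me1, malic enzyme, which supplies NADPH, went the other way: it read 7.44 and 7.61 in TSC1 KO, against 9.01, 8.82 and 8.96 in WT CSC and 7.34, 7.58 and 7.58 in WT QSC (adjusted p = 0.00473). Without single WT CSC pools 2 genes of the list were called higher each time, and 10 without WT QSC pool 1.

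Lysosome genes also stood above WT CSC. Of 51, 6 were higher in TSC1 KO QSC and none lower, with a median of 0.56, and 46 of the 51 differences were positive. The alert change raised 3 and lowered 1, with a median of -0.13. The list mean was 9.82 in TSC1 KO, against 9.32, 9.23 and 9.25 in WT CSC, 9.52, 9.28 and 9.25 in WT QSC and 9.46 in both Rptor KO and cMet KO pools. Hexa, a subunit of hexosaminidase, read 10.16 and 10.22, against 8.95, 9.12 and 9.06 in WT CSC and 9.66, 9.17 and 9.44 in WT QSC (2.22-fold over WT CSC, adjusted p = 0.0149, and 0.0540 without WT CSC pool 3). Atp6v0d1, a subunit of the proton pump that acidifies lysosomes, read 10.25 and 10.39, against 9.27, 9.19 and 9.26 in WT CSC and 9.97, 9.39 and 9.39 in WT QSC (2.12-fold, adjusted p = 0.0288, and 0.0666 to 0.0888 without single WT CSC pools). Gpnmb, a transmembrane glycoprotein of lysosomes, read 11.76 and 11.72, against 8.98, 8.47 and 8.78 in WT CSC and 9.88, 9.37 and 9.10 in WT QSC, and was 7.97-fold over WT CSC (adjusted p = 0.00223). Rptor KO QSC read 11.76 for Gpnmb as well. Among the 51 genes the E-box TCACGTGA, the motif of the TFEB family and of other factors, was in 7 of 51 promoters of the 43 genes matched (13.7%), in none of 27 promoters of glycolysis genes and in 258 of all 32851 promoters (0.785%), searched on both strands in the same 250 bases. Without single WT CSC pools 1 to 3 lysosome genes were called higher, and without single WT QSC pools 11 to 15.

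Components of the pathway itself were called higher at near the share over all genes, 5.3%. Of 33 mTORC1 pathway components 2 were higher and none lower in TSC1 KO QSC, with a median of 0.25; the count was 1 without single WT CSC pools and 6 without WT QSC pool 1. Deptor, an inhibitor that binds mTOR, read 10.78 and 10.93 in TSC1 KO, against 9.37, 9.48 and 9.48 in WT CSC and 10.85, 10.03 and 10.14 in WT QSC (2.67-fold over WT CSC, adjusted p = 0.0215, and 0.0578 to 0.0649 without single WT CSC pools). Of 25 genes of FoxO factors and insulin signalling 4 were higher and none lower, and 1 to 2 were higher without single WT CSC pools and 5 to 7, with 1 lower, without single WT QSC pools. Sesn1, a stress-induced inhibitor of mTORC1, read 10.09 and 10.39, against 8.72, 8.59 and 8.41 in WT CSC and 9.71, 9.43 and 8.99 in WT QSC (3.18-fold, adjusted p = 0.00931).

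Most genes of quiescence that the alert state lowers were at or beyond their noninjured level in the TSC1 KO pool, as were most of all genes that it lowers. Of 38 tested, 12 were higher in TSC1 KO QSC than in WT CSC and none lower, with a median of 0.74, and the alert change lowered 19. The higher calls numbered 5 to 6 without single WT CSC pools and 15 to 19 without single WT QSC pools. Of those 19, the TSC1 KO pool was in the WT QSC range for 10, on the far side of WT QSC for 7, between the ranges for 1 and in the WT CSC range for 1. In or beyond the WT QSC range were thus 89.5%, against 79.4% of all 1024 alert genes lower in WT CSC. For the same 19 genes the share was 89.5% in cMet KO QSC and 63.2% in Rptor KO QSC. The difference of Pax7 from WT CSC was 3.18-fold (log2 1.67, SE 0.35, adjusted p = 0.022, and 0.0658 and 0.0712 without WT CSC pool 2 or 3). Chodl, a membrane lectin of quiescent satellite cells, read 12.12 and 12.10 in TSC1 KO, against 10.45, 10.49 and 10.77 in WT CSC and 12.03, 11.99 and 11.52 in WT QSC (2.91-fold, adjusted p = 0.00852). Calcr, the calcitonin receptor that maintains quiescence, differed by 1.12 (adjusted p = 0.0626). Of 21 Notch pathway genes 2 were higher, Hes1 (2.07, adjusted p = 0.0146) and Heyl (1.51, adjusted p = 0.0425, and 0.07 to 0.117 without single WT CSC pools), both transcriptional repressors induced by Notch. The list had 1 higher call without single WT CSC pools, 4 higher and 1 lower without WT QSC pool 2, and 1 lower without WT QSC pool 3.

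Immediate early genes, whose transcripts appear within minutes of a stimulus and also during cell isolation, had the largest share of higher calls among the gene lists. Of 39 genes 22 were higher in TSC1 KO QSC and none lower, with a median of 1.15, and the alert change lowered 24. The count was 18, 14 and 11 without WT CSC pool 1, 2 or 3. Of those 24 the TSC1 KO pool was in the WT QSC range for 12 and beyond WT QSC for 12. In or beyond the WT QSC range were 79.4% of all alert genes lower in WT CSC. For the 24 the share was 95.8% in Rptor KO QSC and 58.3% in cMet KO QSC. Fos, a subunit of the AP-1 factor, read 13.09 and 12.93 in TSC1 KO, against 10.73, 11.09 and 11.07 in WT CSC and 12.97, 12.14 and 11.99 in WT QSC (4.12-fold over WT CSC, adjusted p = 0.0112). The TSC1 KO arrays thus lay with WT QSC pool 1. Of 27 inflammatory genes 10 were higher and none lower, where the alert change lowered 14. Ccl7, a chemokine that attracts monocytes, read 11.10 and 11.13, against 9.09, 8.80 and 8.94 in WT CSC and 10.43, 10.27 and 10.07 in WT QSC (4.50-fold, adjusted p = 0.00215). Il6, a cytokine, read 10.94 and 10.86, against 7.79, 8.95 and 8.88 in WT CSC and 9.96, 10.40 and 10.51 in WT QSC (5.13-fold, adjusted p = 0.0126). Of 17 heat shock genes 4 were higher, of 25 interferon genes 7 and of 21 glucocorticoid targets 4, with no lower call. Without WT CSC pool 1, 2 or 3 the heat shock count was 1 each time, the interferon count 6, 2 and 2, and the glucocorticoid count 3, 3 and 2; without WT QSC pool 1, 2 or 3 they were 4, 6 and 6 for heat shock, 9, 9 and 7 for interferon, and 8, 7 and 4 for glucocorticoid targets.

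Markers of other cell types moved with these groups. Of 16 endothelial markers 7 were higher in TSC1 KO QSC than in WT CSC and none lower, and their summed log2 level was 139.96, against 122.95 to 129.69 in WT CSC pools and 138.54 to 150.04 in WT QSC pools. Cdh5, the cadherin of endothelial junctions, read 10.50 and 10.46 in TSC1 KO, against 8.59, 9.44 and 9.06 in WT CSC and 10.84, 10.23 and 10.99 in WT QSC (adjusted p = 0.0383, and 0.0774 and 0.0977 without WT CSC pool 1 or 3). The endothelial count was 0, 1 and 3 without WT CSC pool 3, 1 or 2. Fibro-adipogenic markers had 3 of 12 higher, and 1 of 12 without single WT CSC pools, with a summed level of 109.34, against 100.19 to 104.63 in WT CSC and 107.39 to 111.73 in WT QSC. Pericyte and smooth muscle markers had 2 of 10 higher (3, 4 and 3 without WT QSC pool 1, 2 or 3) and macrophage markers 0 of 12 (3 lower without WT QSC pool 2), with macrophage sums of 85.52, against 88.69 to 89.59 in WT CSC and 84.97 to 91.39 in WT QSC. Satellite cell markers had 6 of 16 higher, with a sum of 187.83, against 173.36 to 176.26 in WT CSC and 180.53 to 186.36 in WT QSC, and 2 to 3 higher without single WT CSC pools. The part of these cell types in the results above was not tested. In pooled cells, fewer cells of a type and less RNA per cell cannot be told apart.

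Muscle genes split within their list. Of 31 genes of myogenic commitment and fusion 6 were higher and 3 lower in TSC1 KO QSC than in WT CSC, and the alert change raised 9 and lowered 2. Higher calls numbered 5, 3 and 2 without WT CSC pool 1, 2 or 3, and lower calls 5 without WT QSC pool 2. Myl4, an atrial and embryonic myosin light chain, was the single gene higher in the alert state that the TSC1 KO pool exceeded by test: it read 11.13 and 11.11, against 10.35, 9.90 and 9.64 in WT CSC and 8.90, 8.39 and 8.99 in WT QSC. It was 2.23-fold over WT CSC (log2 1.16, SE 0.31, adjusted p = 0.0494), where the alert change was 2.30-fold (adjusted p = 0.00667), and 5.82-fold over the Rptor KO and cMet KO pools (adjusted p = 0.0344, and 0.0612 to 0.0987 without single WT CSC pools). The call against WT CSC was lost without WT CSC pool 2 or 3 (adjusted p = 0.128 and 0.13). Myl1, a light chain of fast fibres, read 10.92 and 10.83, against 9.12, 8.66 and 8.59 in WT CSC and 9.15, 7.80 and 8.83 in WT QSC (4.25-fold, adjusted p = 0.0234, and 0.0686 and 0.0722 without WT CSC pool 2 or 3), and Actn2, alpha-actinin of the Z disc, was 4.67-fold over WT CSC (adjusted p = 0.0129). Myof, a membrane repair and fusion protein, went the other way: it read 8.41 and 8.56 in TSC1 KO, against 10.90, 10.44 and 10.51 in WT CSC and 7.98, 7.30 and 7.71 in WT QSC (4.38-fold lower than in WT CSC, adjusted p = 0.00473). Markers of mature fibres had 3 of 17 higher and none lower (1 lower without WT CSC pool 3 or WT QSC pool 1), and their sum was 150.6, against 141.74 to 149.31 in WT CSC and 127.39 to 143.89 in WT QSC. Of the 17 differences from WT CSC 10 were positive and 7 negative. Against WT QSC, and against the mean of the Rptor KO and cMet KO pools, all 17 were positive, with medians of 0.62 and 0.95. The list mean was 8.86 in TSC1 KO QSC, against 8.12, 7.49 and 8.46 in WT QSC pools. It was 7.48 in Rptor KO QSC and 7.78 in cMet KO QSC. Actn3 read 9.21 and 9.32 in TSC1 KO, against 10.95, 10.40 and 9.97 in WT CSC and 9.33, 8.88 and 8.96 in WT QSC. Its difference from WT CSC was -1.18 (limma adjusted p = 0.0628). Acta1, skeletal actin, read 11.73 and 11.77, against 10.99, 10.95 and 10.78 in WT CSC and 10.73, 9.16 and 11.56 in WT QSC (difference from WT CSC 0.84, adjusted p = 0.507). The part of fibre RNA in the muscle genes, and in the genes of oxidative phosphorylation, Ppargc1a and Cox8b, was not tested.

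Beyond the lists, the largest differences included genes that the alert change did not raise. Inmt, an N-methyltransferase of small amines, read 11.05 and 10.91 in TSC1 KO, against 6.47, 6.63 and 6.63 in WT CSC and 8.28, 7.30 and 6.87 in WT QSC (21.2-fold over WT CSC, adjusted p = 0.00215). Ryr3, a calcium release channel, read 9.69 and 9.81, against 7.10, 6.92 and 6.90 in WT CSC and 7.92, 7.59 and 7.36 in WT QSC (6.85-fold over WT CSC, adjusted p = 0.00168). With Cox8b it was called over WT QSC with all pools (Ryr3 4.38-fold, adjusted p = 0.0484, lost without single pools as given above), and Inmt missed the threshold (11.3-fold, adjusted p = 0.0511). Without WT QSC pool 1 both passed (Ryr3 adjusted p = 0.0101, Inmt adjusted p = 0.000584). All 3 were higher than the Rptor KO and cMet KO pools (Inmt adjusted p = 0.0344, Ryr3 adjusted p = 0.0323), but without single WT CSC pools Inmt (0.0915 to 0.108) and Ryr3 (0.0683 to 0.0987) were not. On the lower side, Vcan, the matrix proteoglycan versican, read 7.08 and 7.50 in TSC1 KO, against 10.38, 10.63 and 10.55 in WT CSC and 8.49, 9.05 and 8.98 in WT QSC. It was below both WT groups, 9.41-fold lower than in WT CSC (adjusted p = 0.00168) and lower than in Rptor KO (9.55) and cMet KO (9.36) pools (adjusted p = 0.0323, and 0.0683 to 0.0987 without single WT CSC pools). Cd53, a tetraspanin of white blood cells, read 6.09 and 6.17, against 6.94, 6.84 and 6.95 in WT CSC and 7.21, 7.55 and 7.37 in WT QSC (adjusted p = 0.0355, and 0.0799 to 0.116 without single WT CSC pools). Its alert change, -0.47 (limma adjusted p = 0.0422), also lost its call without single WT CSC pools (0.0972 to 0.155) and without WT QSC pool 2 or 3 (0.0797 and 0.0740). Both TSC1 KO values of Cd53 lay under log2 6.45, the mean signal below which genes were left out, so they were near the floor.

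Of the 5 genes lower than in the Rptor KO and cMet KO pools, 3 were microRNA genes of chromosome 12. Mature sequences from RefSeq (GRCm38.p6) are shown with the seed, bases 2 to 8, in capitals. They lie on the plus strand at chr12:109734946-109734967 for miR-485-3p, chr12:109740553-109740574 for miR-377-3p and chr12:109734145-109734166 for miR-134-5p. No seed is shared among these 3. The other arms of the same genes, miR-377-5p and miR-134-3p, are not printed.
miR-485-3p: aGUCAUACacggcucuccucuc
miR-377-3p: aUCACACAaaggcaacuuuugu
miR-134-5p: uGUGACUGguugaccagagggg
Which RNA form the probesets read is not given, and these genes were chosen after their values were seen. Mir485 read 7.94 and 8.28 in TSC1 KO, against 8.95, 8.86 and 8.96 in WT CSC and 9.25, 9.36 and 9.61 in WT QSC, so it lay beyond the WT CSC pools in the direction of the alert change, which lowered it by 0.49 on the log2 scale (adjusted p = 0.0388, lost without single WT CSC pools at 0.0946 to 0.144 and without WT QSC pool 2 or 3 at 0.0511 and 0.0914). Its difference from WT CSC was -0.81 (SE 0.19, adjusted p = 0.0336). The call was lost without any 1 of the WT CSC pools (0.0761 to 0.110) and with TSC1 KO array 2 alone (0.0663). Rptor KO QSC was the highest of these pools at 10.78, and cMet KO QSC read 9.42. Mir377 read 7.45 and 7.90 in TSC1 KO, against 8.33, 8.51 and 8.12 in WT CSC and 9.40, 8.85 and 9.34 in WT QSC, a difference of -0.64 from WT CSC (adjusted p = 0.153) and of -2.18 from the other knockout pools (adjusted p = 0.0344). Mir134 differed by -0.47 from WT CSC (adjusted p = 0.192) and by -1.64 from the other knockout pools (adjusted p = 0.036), where Rptor KO QSC read 11.53 and cMet KO QSC 10.11. Without single WT CSC pools no microRNA gene was called against the other knockout pools (Mir485 0.0612 to 0.0987, Mir377 0.0915 to 0.0987, Mir134 0.0612 to 0.114).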

How the data were processed

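The deposited values are log2 probeset signals. Per the submitters' processing notes the authors used Affymetrix Expression Console and its RMA method; neither has a version or genome build given in the sources used here. Technical arrays of a pool were averaged, which gave 12 pools in 8 groups from 21 arrays. Of 35556 probesets, 21789 had 1 gene symbol in the platform annotation, 1621 several and 12146 were not listed; the brightest probeset stood for each of 19938 genes, 999 of which had several. Genes under the 30th percentile of mean signal (log2 6.45) were left out, leaving 13956.

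All pools entered 1 linear model in limma 3.58.1 under R 4.3.3, with 4 residual and 9.01 moderated degrees of freedom. TSC1 KO QSC was contrasted with WT CSC at 2.5 days, WT QSC, and the mean of Rptor KO QSC and cMet KO QSC, and WT CSC with WT QSC. P-values were adjusted by Benjamini-Hochberg over all genes tested, with a threshold of 0.05. The fit was also run on simulated data. There the TSC1 KO pool was given the same spread as the other pools, so that run could not check this assumption. Separate pools came from different mice, but the labels give no extraction or hybridization batch, so batches could not be examined; the number of arrays limits the precision.

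Alternatives were quantile normalization, centring, other dim-gene filters, the mean of probesets, trend and robust variance, the 7 TSC1 KO and WT pools alone, each technical array alone, all arrays kept with a random block per pool, a replicate block, and leaving out each WT pool. The replicate block was not part of the main fit. Members and gene lists were chosen with earlier results of these data known. Genes named were Tsc1, the 10 largest called differences in each direction with both TSC1 KO arrays outside the WT CSC range, reached and exceeded genes, up to 4 members per list with the smallest p, and a short panel, without predicted genes or microRNAs; those outside this rule were chosen after their values were seen. Promoter and microRNA sequences came from RefSeq tables (GRCm38.p6), matched by symbol; figures were drawn with matplotlib 3.10.9.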

Additional observations from a re-analysis of the deposited data

How the results depend on the processing

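The direction of each list median given here held under every alternative run, and 1 pool per knockout is the main limit: no alternative replaces a second TSC1 KO pool. Calls between TSC1 KO QSC and WT CSC numbered 2532 with all arrays and the pool as a random block, and 429 to 1961 when single WT pools were left out, where the alert change had 1181 to 2620 calls, genes lacked 316 to 1226, exceeded 0 to 6 and reached 0 to 40. With the random block genes lacked numbered 1816, reached 32 and exceeded 7. Exceeded genes numbered 0 with centred arrays, 1 with no filter, 5 with the first array of each pool and 5 with the replicate block. Calls over WT QSC numbered 6 with quantile normalization, 1 with centring, 1 with no filter, 6 with the 50th percentile filter, 10 with trend and robust variance, 174 with the random block, 10 with first arrays, 1 with TSC1 KO array 1 alone, 4 with the replicate block, and 1 to 231 without single WT pools. Against the other knockout pools they numbered, in the same order up to first arrays, 43, 10, 4, 39, 54, 794 and 58, then 33 with TSC1 KO array 2 alone, 51 with the replicate block and 1 to 238 without single WT pools.

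The median of oxidative phosphorylation against WT CSC was -0.076 with centring, -0.21 with first arrays and -0.20 with array 1 alone (-0.17 to -0.14 without single WT pools); sterol synthesis 0.96 with the 50th percentile filter and 0.90 with array 2 (0.78 to 0.89); fatty acid synthesis 0.92 with centring, 0.73 with first arrays, 0.78 with array 1 and 0.93 with array 2 (0.83 to 0.86); lysosome 0.62 with centring, 0.53 with mean probesets, 0.48 with first arrays and 0.49 with array 1 (0.49 to 0.56); quiescence 0.81 with centring (0.73 to 0.80). Without single WT pools S phase ran from -1.19 to -1.03, mitosis from -1.47 to -1.31 and immediate early genes from 1.09 to 1.17. Centring moved the median of all genes to 0.10. Deviations of same-numbered WT pools correlated at r = 0.32, -0.03 and -0.03, and those of unlike-numbered pools at -0.31 to 0.32. The numbers were not taken to pair pools. With the replicate block 1599 genes were called against WT CSC. The causes of these shifts were not tested.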

Other observations

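The comparison of TSC1 KO QSC with the mean of the Rptor KO and cMet KO QSC pools uses no WT sample, so it can be set beside the alert change. Across the 2510 alert genes the 2 differences correlated at r = 0.18, with a slope of 0.10, and across all 13956 genes at r = 0.14; genes are not independent replicates and no p is given. Oxidative phosphorylation had a median of 0.58 in this comparison, where the alert change had 0.56, S phase 0.13 where the alert change had 1.22, and mitosis 0.53 where it had 1.64. Sterol synthesis had a median of 0.95 and mature fibre markers 0.95, where the alert change had -0.18 and 0.42. The 2 pools of that mean were unlike for some lists. Against WT QSC, the sterol median was -0.89 in Rptor KO QSC, 0.10 in cMet KO QSC and 0.59 in TSC1 KO QSC. For mitosis these were -0.65, 0.13 and 0.29, for mature fibre markers -0.37, -0.23 and 0.62, and for oxidative phosphorylation -0.23, -0.12 and 0.46. Proteasome genes had a median of 0.39, against 0.77 in the alert change, with a Rptor KO pool mean of 9.36 and a cMet KO pool mean of 9.91.

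Rrm2, the ribonucleotide reductase subunit that limits deoxynucleotide supply, read 9.99 and 10.39 on the TSC1 KO arrays, against 10.98, 11.12 and 11.37 in WT CSC pools and 9.56, 7.98 and 8.86 in WT QSC pools. It lay above every WT QSC pool and below every WT CSC pool, unlike Mcm6 and Ccne2, with a difference of -0.97 from WT CSC (limma adjusted p = 0.245) and of 1.39 from WT QSC (adjusted p = 0.471), and it counted as reached only without WT QSC pool 1. Nos1, a nitric oxide synthase of nerve and muscle, read 7.85 and 8.04 in TSC1 KO, against 8.96, 8.57 and 8.71 in WT CSC pools and 9.18, 9.25 and 9.12 in WT QSC pools, and was lower than the other knockout pools by 1.65 on the log2 scale (adjusted p = 0.0344, and 0.0612 to 0.108 without single WT CSC pools), a gene chosen after its values were seen.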
